A study of Mus musculus with 25 samples.

Results

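The genes described here encode the factors that bring an mRNA, a ribosome and the initiator tRNA together, which are the initiation factors eIF1 to eIF6 with the kinases and binding proteins that carry their names. They were taken by name. Protein-coding genes were kept when their symbol begins with Eif and a digit from 1 to 6, when they lie on an autosome, and when they held at least 1 read on average over the 25 libraries. This left 51 genes of the 25794 autosomal genes that passed the same limit on reads, out of 55375 genes counted. *Eif1ax*, *Eif2s3x* and *Eif2s3y* lie on the X or Y chromosome and were left out, since the sexes are mixed in IVF pools and every SCNT donor nucleus was female. The limit on reads removed only *Eif4ebp3*, with a mean of 0.12 reads, and the least abundant gene that stayed was *Eif2ak2*, with a mean of 13.6 reads. A further 11 genes with such names are pseudogenes or of other biotypes and were not included.

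RNA was measured in pools of 5 to 10 wild-type mouse embryos at the two-cell stage, collected 28 to 29 h after insemination or activation. IVF embryos (4 libraries) came from oocytes of C57BL/6N females and sperm of DBA2 males, with the females aged 4 to 20 weeks by the labels, whereas the study's methods give a narrower range. All other embryos were made by somatic cell nuclear transfer (SCNT), in which a cumulus cell nucleus of a BDF1 (C57BL/6N × DBA2) female replaced the nucleus of an oocyte of a BDF1 female. The SCNT embryos activated in cytochalasin B (CCB) received nothing more (CCB control, 2 libraries) or an injection of 10 pL of *Kdm3a* or *Kdm4d* mRNA at 1500 ng/μL (2 libraries each). These mRNAs encode demethylases of histone H3 lysine 9, KDM3A for H3K9me1/2 and KDM4D for H3K9me2/3. The remaining SCNT embryos were activated in latrunculin A (LatA) and were otherwise untreated (LatA control, 2 libraries) or exposed to 25 nM of the histone deacetylase inhibitor trichostatin A (TSA) for 8 h (2 libraries), to 1 μM of RK-701 (3 libraries) or A366 (2 libraries) for 24 h, or to TSA together with RK-701, A366 or UNC0638 (2 libraries each). RK-701, A366 and UNC0638 inhibit G9a, the methyltransferase of H3K9me1/2, and the labels write RK-701 as R701. CCB and LatA both disrupt actin filaments, so every SCNT control also carries 1 of these agents. Each treated group was compared with the control of its own agent and with IVF embryos, to learn which initiation factor genes differ after nuclear transfer and which differ again after the histone marks are altered.

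Initiation of translation starts with a 40S ribosomal subunit that carries eIF1, eIF1A, the eIF3 complex and eIF2 bound to GTP and initiator methionyl-tRNA. The eIF4F complex, made of the cap-binding protein eIF4E, the scaffold eIF4G and the helicase eIF4A, recruits this subunit to the 5′ cap, and it then scans to a start codon, where eIF5 triggers hydrolysis of GTP and eIF5B joins the large subunit. eIF2B reloads eIF2 with GTP, the eIF2 kinases block this step by phosphorylating eIF2α, and the 4E-binding proteins sequester eIF4E. The mouse two-cell embryo passes from mRNA stored in the oocyte to its own transcripts, and *Eif1a* is a long used marker of this zygotic genome activation (ZGA).

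Promoter sequence is shown for the genes that rose together in the results on combined treatment, so that their starts can be compared. The windows run from 250 bases before to 50 bases after the RefSeq start on GRCm38.p6, and 40 of the 51 genes had such a window, with 53 windows in all. Of the 9 genes that were higher with both TSA + RK-701 and TSA + A366, 5 had one. These are *Eif2s1* (chr12:78861822-78862121, plus strand), *Eif2s2* (chr2:154892857-154893156, minus strand), *Eif3g* (chr9:20898541-20898840, minus strand), *Eif3m* (chr2:105016978-105017277, minus strand) and *Eif4e*, whose downstream start of 2 is printed (chr3:138527018-138527317, plus strand). Capitals mark CCGGAAG (the core bound by ETS factors), CACGTG (E-box), CCAAT and TATAAA on either strand.
Eif2s1: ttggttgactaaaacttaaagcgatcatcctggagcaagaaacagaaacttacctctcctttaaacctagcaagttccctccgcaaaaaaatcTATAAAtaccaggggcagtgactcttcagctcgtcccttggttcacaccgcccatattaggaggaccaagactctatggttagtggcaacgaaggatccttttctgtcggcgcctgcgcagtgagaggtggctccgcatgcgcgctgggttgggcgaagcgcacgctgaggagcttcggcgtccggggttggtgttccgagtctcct
Eif2s2: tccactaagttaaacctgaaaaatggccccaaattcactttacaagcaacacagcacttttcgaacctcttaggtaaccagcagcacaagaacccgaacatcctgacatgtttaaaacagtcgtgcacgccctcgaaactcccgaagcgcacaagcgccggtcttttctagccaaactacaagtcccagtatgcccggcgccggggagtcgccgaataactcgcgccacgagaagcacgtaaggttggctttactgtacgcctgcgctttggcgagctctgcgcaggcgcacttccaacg
Eif3g: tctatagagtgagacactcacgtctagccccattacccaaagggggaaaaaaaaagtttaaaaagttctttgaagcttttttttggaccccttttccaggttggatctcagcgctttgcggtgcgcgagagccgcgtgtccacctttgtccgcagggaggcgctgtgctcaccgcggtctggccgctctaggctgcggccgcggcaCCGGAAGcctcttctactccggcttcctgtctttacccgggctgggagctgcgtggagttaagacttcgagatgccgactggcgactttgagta
Eif3m: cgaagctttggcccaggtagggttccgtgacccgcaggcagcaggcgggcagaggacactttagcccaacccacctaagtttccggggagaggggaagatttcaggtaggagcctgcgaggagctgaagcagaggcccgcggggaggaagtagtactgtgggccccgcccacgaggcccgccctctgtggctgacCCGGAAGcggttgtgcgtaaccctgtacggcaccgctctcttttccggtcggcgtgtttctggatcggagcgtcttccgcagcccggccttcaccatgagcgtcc
Eif4e: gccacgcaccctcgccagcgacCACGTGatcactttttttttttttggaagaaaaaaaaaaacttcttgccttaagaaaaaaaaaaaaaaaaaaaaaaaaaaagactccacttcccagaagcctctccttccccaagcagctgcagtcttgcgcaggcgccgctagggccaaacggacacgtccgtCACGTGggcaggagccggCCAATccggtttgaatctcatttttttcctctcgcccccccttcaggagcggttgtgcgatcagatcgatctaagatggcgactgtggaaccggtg

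*Eif3g* and *Eif3m* each hold 1 ETS core shortly before the start, the printed window of *Eif4e* holds 2 E-boxes and 1 CCAAT, *Eif2s1* holds 1 TATAAA, and *Eif2s2* holds none of the 4 motifs. Over the 53 windows, CCGGAAG was present in 34.0%, against 8.86% of all 32851 windows of this length. CACGTG was present in 22.6% against 7.15%, CCAAT in 28.3% against 37.4%, and TATAAA in 5.66% against 13.6%. A gene with several starts counts once for each, and the 4 motifs do not overlap each other in letters. These are matches of letters only. Windows of *Eif1a*, *Eif2b3*, *Eif3e* and *Eif3h* are not shown.

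The shallowest library held 6662727 reads on genes, the median one 13994840 and the deepest 21188688, of which the 51 genes together took 1.22 to 1.89%. With a median of 1598 reads per library the genes were measured more deeply than the typical gene tested, whose median was 27.8, and 48 of them held at least 100 reads in each library. Where calls among the 51 genes are set beside the share of all genes below, the part of this depth was not tested. Two-cell stage markers were present in every group, with 8 of 9 genes detected and *Gm6763* at 0, and so were all 10 oocyte-stored markers. The 12 markers of cumulus and granulosa cells summed to 43.8 to 100.6 CPM (reads of a gene scaled to a common library size), the 6 of sperm and testis to 0.715 to 4.07 CPM, and the 4 of blood to at most 20.2 CPM. Injected mRNA was recovered, with 3116 and 3465 CPM of *Kdm3a* after *Kdm3a* injection against 109 to 267 elsewhere, and 12540 and 18542 CPM of *Kdm4d* after its injection against 0.718 to 5.08 elsewhere. Because embryos were pooled, fewer cells with an mRNA and less mRNA per cell cannot be told apart.

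The LatA control libraries differed from each other in more of the 51 genes than any other pair of libraries within a group. Between the LatA control libraries 12 of the 51 genes differed by more than 2-fold (0.5 CPM added), against 2 genes between the CCB control libraries and 0 to 3 genes in each of the 16 pairs of libraries within the other groups. *Eif2s1* held 559 and 212 CPM in LatA control replicates 1 and 2, *Eif4e* 1479 and 731, *Eif1a* 167 and 74.9, and *Eif4ebp2* 22.9 and 68.6. In the CCB control, *Eif2s1* held 268 and 628 CPM and *Eif2b1* 174 and 367. In each control *Eif2s1* was low in 1 library, replicate 2 with LatA and replicate 1 with CCB. The labels give no batch for these libraries, so results of the 51 genes against a control are given below with all libraries and without each control library. Reads on genes were 16604899 and 9259726 in the LatA control libraries and 9136103 and 11878059 in the CCB control libraries. The summed level of 7 two-cell markers other than *Eif1a* was 514 and 393 CPM with LatA and 670.4 and 749.5 CPM with CCB, each for replicate 1 and 2, and the part of depth and of these markers in the difference was not tested.

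A gene was called when its adjusted p was under 0.05 and its fold change over 2, with edgeR's quasi-likelihood test fitted to all libraries and Benjamini-Hochberg adjustment over all 25794 genes. Fold changes are given on the log2 scale with their standard error (SE), and the values of libraries are CPM. Of the 51 genes, 20 were called in at least 1 of the 10 comparisons of an untreated SCNT control with IVF or of a treatment with its control, and 31 in none. On mm10, the build of the counted annotation, genes that recur below span chr5:31187558-31193430 (minus strand) for *Eif2b4*, chr10:61428491-61452661 (minus strand) for *Eif4ebp2*, chr13:54783998-54788459 (plus strand) for *Eif4e1b*, chr15:43250058-43282719 (minus strand) for *Eif3e* and chr4:117019402-117087306 (plus strand) for *Eif2b3*.

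Levels between genes were compared as TPM, which scale reads by gene length and by library. In IVF embryos the most abundant were *Eif1* (1638 ± 558 TPM, mean ± SD, n = 4), the eIF2β gene *Eif2s2* (1040.5 ± 45.3), the cap-binding gene *Eif4e* (846 ± 42.6), the eIF2α gene *Eif2s1* (675 ± 75.2) and *Eif5a* (667 ± 149). *Eif1* held 803 TPM in replicate 2 and 1877 to 1944 in the others, so that it led in 3 of 4 libraries. *Eif2s1* and *Eif5a* overlapped, whereas *Eif2s2*, *Eif4e* and *Eif2s1* kept their order without overlap. *Eif1a* stood at 182 ± 12.7 TPM, below the eIF3 genes *Eif3h* (510.5 ± 20.4), *Eif3g* (440.1 ± 33.4) and *Eif3m* (396 ± 39.99). Subunits of 1 complex differed widely in TPM. Within the eIF2B exchange factor, *Eif2b1* stood at 455 ± 32.6 TPM and *Eif2b3* at 39.2 ± 8.08, and within eIF3, *Eif3f* stood at 24.9 ± 4.52. The eIF2 kinases were low, with *Eif2ak3* at 29.4 ± 5.22, *Eif2ak1* at 21.3 ± 2.89, *Eif2ak4* at 11.9 ± 2.03 and *Eif2ak2*, the kinase activated by double-stranded RNA, at 0.383 ± 0.350 TPM. All 51 genes together made up 1.10 to 1.33% of TPM in IVF embryos, 1.08 to 1.23% in the CCB control, 1.17 to 1.32% in the LatA control, 1.12 to 1.17% with RK-701, 1.56 to 1.62% with TSA + RK-701, 1.47 to 1.51% with TSA + A366 and 1.31 to 1.45% with TSA + UNC0638. The ranges with TSA + RK-701 and TSA + A366 lay above those of every other group. *Kdm4d*, at 1.37 to 1.44%, overlapped TSA + UNC0638.

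**Figure D1:**
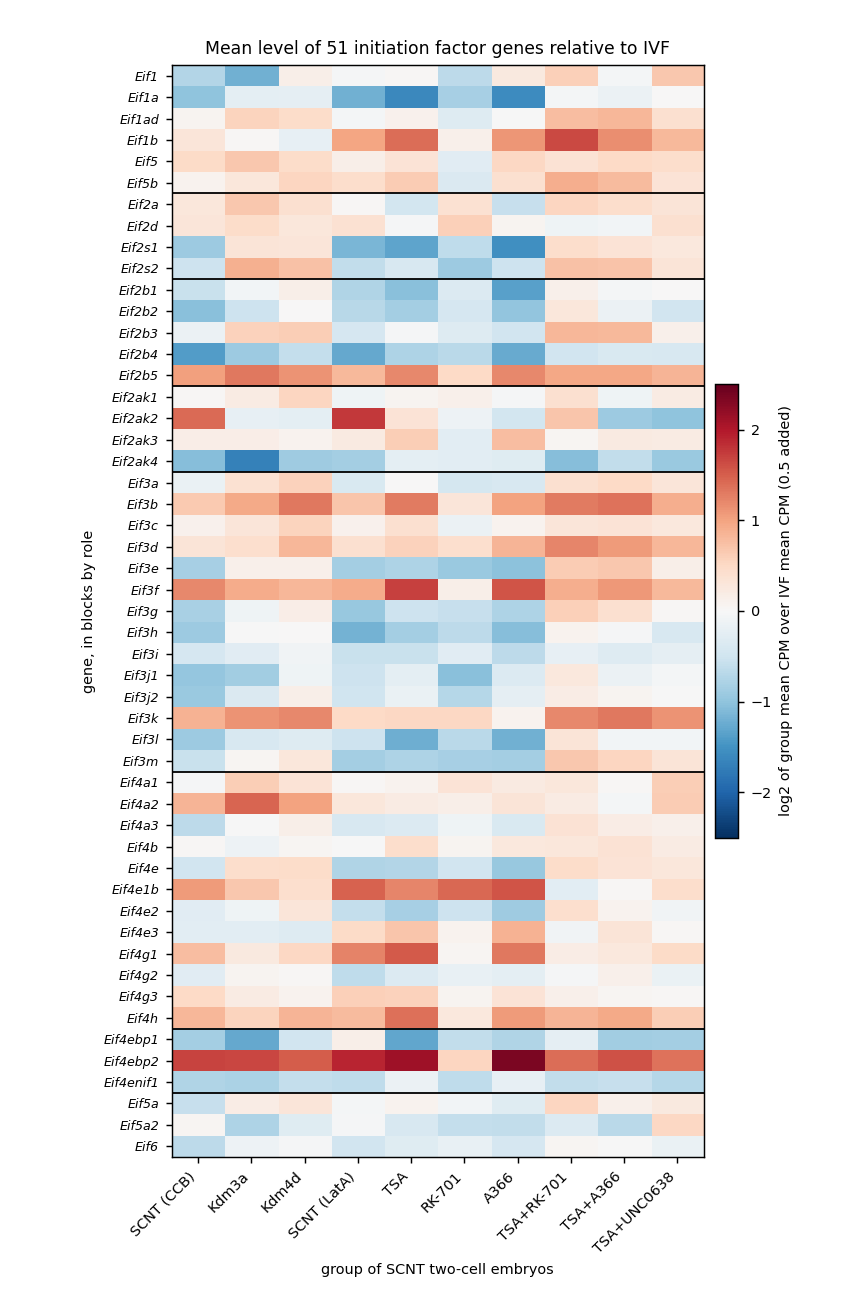
Mean CPM of each of the 51 genes in 10 SCNT groups relative to the IVF mean (log2, 0.5 CPM added), with genes in rows in blocks by role and groups in columns. Red cells are higher and blue cells lower than IVF. *Eif4ebp2* and *Eif2b5* were above IVF in all 10 groups, and *Eif2b4* was below IVF in all 10.

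Untreated SCNT embryos differed from IVF embryos in a minority of the genes, in both directions. In the CCB control 4 genes were higher and 3 lower than in IVF, and in the LatA control 4 were higher and 4 lower, while 15.0% and 15.3% of all genes were called in these comparisons. The median log2 fold change of the 51 genes was -0.17 and -0.05, against 0.01 and 0.04 for all genes. *Eif1a*, *Eif2s1*, *Eif2b4* and *Eif3h* are on the list of reprogramming-resistant genes that the study chose for low levels in these SCNT libraries, so their direction against IVF is not independent evidence. The controls share the 4 IVF libraries. They also differ from IVF in the strain of the oocyte, in artificial activation and in the actin agent. These differences cannot be told apart from nuclear transfer here.

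Genes lower after nuclear transfer belonged to eIF2B, eIF2 and its kinases, eIF3 and the scanning factors. *Eif2b4*, which encodes the δ subunit of eIF2B, held 96.9, 85.2, 89.7 and 112 CPM in IVF, 31.8 and 40.7 in the CCB control and 34.9 and 44.03 in the LatA control. No control library reached the IVF range, and the log2 fold changes were -1.40 ± 0.23 (adjusted p = 7.2e-05) and -1.28 ± 0.23 (adjusted p = 0.000189), each still called whichever 1 library was left out. *Eif1a*, which positions the scanning ribosome on the start codon, held 306, 262, 276 and 273 CPM in IVF, 113 and 166 in the CCB control and 167 and 74.9 in the LatA control, so that again all control libraries lay below all IVF libraries. Its log2 fold change was -1.20 ± 0.26 with LatA (adjusted p = 0.00122), and with CCB it passed the adjusted p (0.00578) but not the fold limit. *Eif3h*, an eIF3 subunit, held 276, 249, 286 and 278 CPM in IVF, 132 and 158 in the CCB control and 153 and 87.7 in the LatA control, with -1.18 ± 0.19 in the LatA comparison (adjusted p = 6.49e-05).

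*Eif2s1*, the eIF2α subunit that the eIF2 kinases phosphorylate, held 951, 741, 914 and 783 CPM in IVF and was called lower in the LatA control (-1.14 ± 0.29, adjusted p = 0.00528). It was not called in the CCB control (-0.92 ± 0.29), and the LatA and CCB controls did not differ by a call (-0.22 ± 0.32). *Eif2b2* held 48.2, 37.4, 38.8 and 47.6 CPM in IVF and 16.7 and 24.6 in the CCB control (-1.05 ± 0.26, adjusted p = 0.00444), and 32.5 and 20.3 in the LatA control, where it was not called. *Eif2ak4*, the kinase GCN2 that responds to scarce amino acids, held 33.2, 39.3, 28.7 and 29.6 CPM in IVF and 15.5 and 15.5 in the CCB control (-1.08 ± 0.31, adjusted p = 0.0133). Its LatA control libraries held 9.28 and 26.4 CPM, of which the second lay near the IVF range.

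The genes higher after nuclear transfer included a repressor and an oocyte form of the cap-binding step. *Eif4ebp2*, which encodes the eIF4E inhibitor 4E-BP2, held 8.53, 13.9, 16.3 and 8.71 CPM in IVF, 51.8 and 26.95 in the CCB control and 22.9 and 68.6 in the LatA control. All control libraries lay above all IVF libraries, with log2 fold changes of 1.71 ± 0.32 (adjusted p = 0.000311) and 1.92 ± 0.32 (adjusted p = 7.9e-05). *Eif4e1b*, the germline form of eIF4E, held 11.2, 15.7, 17.2 and 16.5 CPM in IVF, 41.4 and 23.2 in the CCB control and 28.1 and 58.00 in the LatA control (1.08 ± 0.32, adjusted p = 0.0152, and 1.49 ± 0.31, adjusted p = 0.000966). *Eif3f* held 22.6, 28.2, 21.3 and 19.8 CPM in IVF, 64.98 and 41.8 in the CCB control (1.21 ± 0.22, adjusted p = 0.00019) and 34.04 and 54.4 in the LatA control. *Eif4g1*, the main scaffold of eIF4F, held 73.6, 66.1, 75.1 and 85.7 CPM in IVF, 138 and 118 in the CCB control and 127 and 229 in the LatA control, where it was called (1.24 ± 0.19, adjusted p = 2.47e-05). *Eif2b5*, the catalytic ε subunit of eIF2B, held 55.7, 58.2, 57.6 and 39.7 CPM in IVF, 107 and 108 in the CCB control (1.03 ± 0.16, adjusted p = 3.08e-05) and 79.3 and 106 in the LatA control. Within eIF2B the catalytic subunit was therefore higher while *Eif2b2* and *Eif2b4* were lower in the same CCB comparison. *Eif1b*, a close relative of *Eif1*, held 64.03, 40.3, 51.9 and 63.6 CPM in IVF, 70.3 and 64.8 in the CCB control and 86.97 and 133 in the LatA control (1.00 ± 0.19, adjusted p = 0.000253). This call, at the fold limit, was lost with DESeq2, with its size factors in edgeR, and with only the compared libraries fitted.

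These counts moved with single libraries. In the CCB comparison each fit without 1 library also called fewer of all genes tested than the fit to all libraries. Without LatA control replicate 2 the LatA comparison had 3 calls, all lower, of which *Eif2b4* alone was among the 8 genes called with all libraries, and without replicate 1 it had 18. Without CCB control replicate 1 the CCB comparison had 5 calls and without replicate 2 it had 14. With LatA, *Eif2b4* was the only one of the 8 genes called without each library in turn, and with CCB these were *Eif2b4* and *Eif4ebp2*. *Eif4ebp2* in the LatA comparison ranged from 0.93 to 2.51 on leaving out 1 library.

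**Figure D2:**
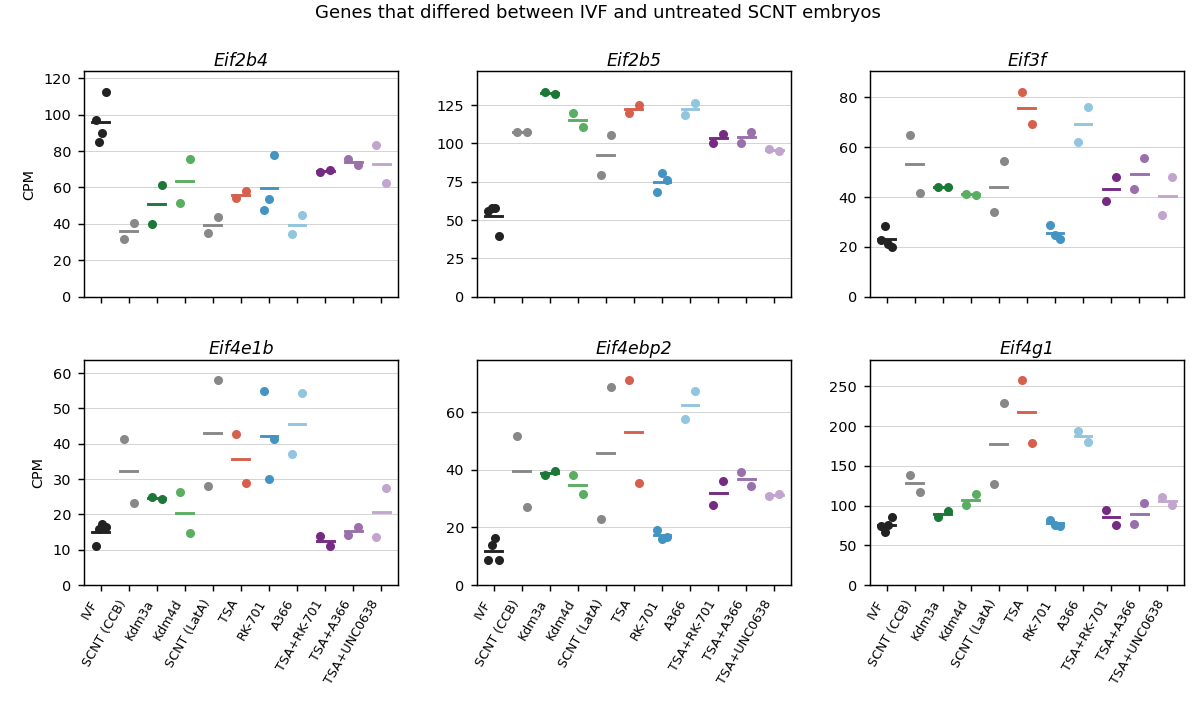
CPM of 6 genes in each library, with 1 panel per gene and the 11 groups along the horizontal axis. Points are libraries and bars are group means. *Eif2b4* is highest in IVF, whereas *Eif2b5*, *Eif3f*, *Eif4e1b*, *Eif4ebp2* and *Eif4g1* are lowest or near their lowest there, and the LatA control libraries lie far apart for *Eif4ebp2* and *Eif4g1*.

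Injection of *Kdm3a* or *Kdm4d* mRNA was followed by higher levels of the eIF2 subunit genes *Eif2s1* and *Eif2s2*. Both comparisons use the CCB control libraries. With *Kdm3a*, 2 genes were higher and 0 lower, which is 3.92% of the 51 genes and near the 4.16% of all genes called. With *Kdm4d*, 4 were higher and 0 lower, or 7.84% against 3.14%. The median log2 fold change of the 51 genes was 0.26 and 0.45, against -0.04 for all genes in each. *Eif2s2*, the eIF2β subunit, held 621 and 1058 CPM in the CCB control, 2109 and 2296 with *Kdm3a* and 2005 and 1980.5 with *Kdm4d*. The injected libraries lay above the control and above IVF (1229, 1130.0, 1276 and 1152 CPM), with log2 fold changes over the control of 1.39 ± 0.20 (adjusted p = 9.29e-05) and 1.25 ± 0.20 (adjusted p = 0.000499). *Eif2s1* held 993 and 1113 CPM with *Kdm3a* and 998 and 1106 with *Kdm4d*, against 268 and 628 in the control (1.23 ± 0.32, adjusted p = 0.0207, and 1.23 ± 0.32, adjusted p = 0.0242). The 7 two-cell markers other than *Eif1a* summed to 1376 and 1120.0 CPM with *Kdm3a* and 491 and 634 with *Kdm4d*, against 670.4 and 749.5 in the control. Within this sum mean *Zscan4d* was 130 and 65.4 CPM with *Kdm3a* and *Kdm4d* against 8.17 in the control, and mean *Zfp352* was 539 and 218 against 447. The part of these markers in the results was not tested.

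With *Kdm4d* the other calls were *Eif3j2* and *Eif2b2*. *Eif3j2*, 1 of 2 nearly identical genes for the eIF3 subunit j, held 34.9 and 28.5 CPM in the control and 73.2 and 60.4 with *Kdm4d* (1.08 ± 0.21, adjusted p = 0.00337), and *Eif2b2* held 41.8 and 44.9 CPM with *Kdm4d* (1.07 ± 0.29, adjusted p = 0.0306). Both calls were lost with the LatA control as reference, and that of *Eif2b2* also with DESeq2 and with its size factors in edgeR. *Eif1a* held 210.4 and 259 CPM with *Kdm3a* and 201 and 275 with *Kdm4d*, above both control libraries, but its fold changes of 0.75 ± 0.29 and 0.77 ± 0.29 missed the rule (adjusted p = 0.127 and 0.123). Without CCB control replicate 1, in which *Eif2s1* was low, 1 call remained in each comparison, *Eif2s2* with *Kdm3a* and *Eif3j2* with *Kdm4d*, and *Eif2s1* stood at 0.72 and 0.73. Without replicate 2 there were 9 and 13 calls, all higher. The *Eif2s1* calls were also lost without either injected library of their comparison. On leaving out 1 library the log2 fold change of *Eif2s1* ranged from 0.72 to 1.97 with *Kdm3a* and from 0.73 to 1.97 with *Kdm4d*. That of *Eif2s2* ranged from 1.03 to 1.83 with *Kdm3a* and from 0.90 to 1.68 with *Kdm4d*. No *Kdm4d* call was kept without each library in turn, and with *Kdm3a* only that of *Eif2s2* was. Against the LatA control, which differs in the actin agent, 7 and 8 of the 51 genes were called, and 1693 and 1048 of all 25794 genes. Between the 2 injections, *Eif1* was the only one of the 51 genes called, against 0.326% of all genes. It held 434 and 674 CPM with *Kdm3a* and 1394 and 1435 with *Kdm4d* (1.35 ± 0.31, adjusted p = 0.043), and the call was lost without *Kdm3a* replicate 1 or either *Kdm4d* library.

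Single treatment with TSA or A366 gave no call among the 51 genes, where 0.318% and 0.120% of all genes were called, and RK-701 gave 2 lower calls, where 3.35% of all genes were called. With edgeR's quasi-likelihood test, 9 of the 51 genes had an unadjusted p under 0.05 with TSA and 10 with A366. Of all 25794 genes, 3322 and 3087 did. DESeq2 called 1 of the 51 genes with TSA and 0 with A366, where it called 407 and 304 of all genes. *Eif1a* held 66.2 and 116 CPM with TSA, 88.3 and 98.3 with A366 and 143, 165 and 159.8 with RK-701. All of these lay below every IVF library, and the control libraries held 167 and 74.9 CPM. *Eif2s1* held 243 and 434 CPM with TSA, 316 and 266 with A366 and 543, 575 and 524 with RK-701. The 95% interval of its log2 fold change was -0.84 to 0.46 with TSA, -1.06 to 0.25 with A366 and -0.10 to 1.11 with RK-701, and these reach 2-fold lower with A366 and 2-fold higher with RK-701.

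*Eif4ebp2* and *Eif4g1* fell with RK-701. *Eif4g1* held 82.2, 75.5 and 74.7 CPM with RK-701, within the IVF range, and 127 and 229 in the LatA control (-1.20 ± 0.20, adjusted p = 0.000885). *Eif4ebp2* held 19.1, 16.1 and 16.8 CPM with RK-701 and 22.9 and 68.6 in the control (-1.39 ± 0.35, adjusted p = 0.0167). Both calls were lost without LatA control replicate 2, when *Eif4ebp2* stood at -0.40 and *Eif4g1* at -0.72, and that of *Eif4ebp2* also without RK-701 replicate 2 or 3. The 10 oocyte-stored markers summed to 2383 to 2982 CPM with RK-701 against 1493 to 1645 in the LatA control, and the part of this in the result was not tested. Without that control library TSA had 7 calls, A366 had 6 and RK-701 had 1, and without LatA control replicate 1 these counts were 0, 0 and 9.

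Combined treatment with TSA and a G9a inhibitor was followed by higher levels of genes for eIF2, eIF3, eIF4E and eIF1A. Over the LatA control, TSA + RK-701 had 10 genes higher and 2 lower, TSA + A366 had 9 higher and 1 lower, and TSA + UNC0638 had 4 higher and 0 lower. Among all genes 6.19%, 5.98% and 6.21% were called, with 3.68%, 3.06% and 3.68% higher and 2.51%, 2.92% and 2.54% lower. The median log2 fold change of the 51 genes was 0.60, 0.37 and 0.33, against -0.11, -0.12 and -0.08 for all genes. On the adjusted p alone 20, 14 and 12 of the 51 genes were higher and 2, 2 and 1 lower, against 6.42%, 5.78% and 5.97% of all genes higher and 3.23%, 3.43% and 3.06% lower. The 51 genes held a median of 1598 reads against 27.8 for all genes tested. These shares are therefore not of genes measured equally deeply, and the part of depth in them was not tested. The 3 comparisons share the LatA control libraries, so that their values below are not independent of each other. Marker genes moved as well. The 9 cumulus and granulosa markers that passed the limit on reads summed to 57.3 to 68.4 CPM in the 6 combined libraries against 82.7 and 79.97 in the LatA control, without overlap. IVF libraries, made without a cumulus nucleus, lay on both sides of these control values, with 68.46 CPM in replicate 3 and 85.72 in replicate 2. Genes of this sum also went opposite ways with TSA + RK-701, TSA + A366 and TSA + UNC0638. Mean *Serpine2* was 26.2, 16.2 and 21.1 CPM against 45.1 in the control, and mean *Amhr2* was 34.8, 40.8 and 29.2 against 27.7. The 7 two-cell markers other than *Eif1a* summed to 372 and 405 CPM with TSA + RK-701, 389.6 and 335 with TSA + A366 and 1340.0 and 1370.0 with TSA + UNC0638, against 514 and 393 in the control. Genes within this sum moved in different directions. In the order of these 3 treatments, mean *Zscan4d* was 35.3, 27.7 and 112 CPM against 8.02 in the control. Mean *Zfp352*, the largest part of the control sum, was 162, 146 and 518 CPM against 236. The part of these markers in the results was not tested.

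Both eIF2 subunit genes on autosomes rose. *Eif2s1* held 1138 and 1159 CPM with TSA + RK-701, 1131 and 1005 with TSA + A366 and 1119.5 and 926 with TSA + UNC0638, against 559 and 212 in the LatA control and 951, 741, 914 and 783 in IVF. Its log2 fold changes over the control were 1.57 ± 0.32 (adjusted p = 0.00232), 1.47 ± 0.32 (adjusted p = 0.00433) and 1.41 ± 0.32 (adjusted p = 0.00596). *Eif2s2* held 1746 and 2243 CPM with TSA + RK-701, 2025 and 1924 with TSA + A366 and 1654 and 1348 with TSA + UNC0638, against 868 and 689.8 in the control. With RK-701 and A366 it was called (1.36 ± 0.20, adjusted p = 0.000106, and 1.34 ± 0.20, adjusted p = 0.000122), and with UNC0638 its 0.95 ± 0.19 stayed under the fold limit (adjusted p = 0.00235). All 6 of these libraries exceeded the highest IVF library for *Eif2s2*. Together the 4 genes of eIF2 and alternative carriers made up 0.265 to 0.299% of TPM with TSA + RK-701, 0.280 to 0.289% with TSA + A366 and 0.211 to 0.242% with TSA + UNC0638, against 0.126 to 0.190% in the LatA control and 0.188 to 0.215% in IVF. *Eif2a* and *Eif2d*, which can deliver initiator tRNA without eIF2, were not called in these comparisons. *Eif2b3*, the γ subunit of eIF2B, held 172 and 163 CPM with TSA + RK-701, 168 and 162 with TSA + A366, 103 and 104 with TSA + UNC0638 and 82.4 and 57.4 in the control (1.26 ± 0.25, adjusted p = 0.00199, 1.24 ± 0.25, adjusted p = 0.00246, and 0.56 ± 0.25, not called).

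Of the 14 eIF3 genes, 4 were higher with TSA + RK-701 and with TSA + A366, and 1 with TSA + UNC0638. *Eif3e*, *Eif3g*, *Eif3h* and *Eif3m* encode subunits of this complex, which binds the 40S subunit and helps recruit mRNA. *Eif3g* held 268 and 275 CPM with TSA + RK-701, 253 and 218 with TSA + A366, 206 and 157 with TSA + UNC0638 and 102 and 83.5 in the control. Its control libraries lay close together, and it rose by 1.54 ± 0.22 (adjusted p = 8.06e-05) and 1.34 ± 0.22 (adjusted p = 0.000305). *Eif3e* held 325 and 308 CPM with TSA + RK-701, 346 and 304 with TSA + A366 and 254 and 195 with TSA + UNC0638, against 149 and 76.5 in the control (1.49 ± 0.25, adjusted p = 0.000458, and 1.52 ± 0.25, adjusted p = 0.000396, for RK-701 and A366). *Eif3m* held 267 and 335 CPM with TSA + RK-701, 279 and 263 with TSA + A366 and 254 and 212 with TSA + UNC0638, against 139 and 66.8, and was called in all 3 comparisons (1.54, 1.39 and 1.17). *Eif3h* held 300.2 and 280.3 CPM with TSA + RK-701, 276 and 254 with TSA + A366 and 240.3 and 172 with TSA + UNC0638, against 153 and 87.7 (1.27, 1.14 and 0.78, the last not called). The other eIF3 genes had log2 fold changes between -0.12 (*Eif3f*, TSA + UNC0638) and 0.89 (*Eif3a*, TSA + A366) over the 3 comparisons.

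*Eif1a* held 254 and 284 CPM with TSA + RK-701, 287 and 219 with TSA + A366 and 339 and 221 with TSA + UNC0638. These overlap the IVF libraries (306, 262, 276 and 273 CPM) and lie above both control libraries (167 and 74.9 CPM). The log2 fold changes over the control were 1.15 ± 0.29 (adjusted p = 0.0105), 1.06 ± 0.29 (adjusted p = 0.0184) and 1.20 ± 0.29 (adjusted p = 0.0079). In rising order of mean CPM the groups stood as TSA, A366, LatA control, CCB control, RK-701, *Kdm3a*, *Kdm4d*, TSA + A366, TSA + RK-701, IVF and TSA + UNC0638. Every library of the first 5 groups lies below every library of the last 6, and otherwise neighbours in this order overlap in their libraries.

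At the cap-binding step 2 forms of eIF4E moved in opposite directions. *Eif4e* held 2605 and 2501 CPM with TSA + RK-701, 2484 and 2240.1 with TSA + A366 and 2556 and 1947 with TSA + UNC0638, against 1479 and 731 in the control (1.21 ± 0.27, adjusted p = 0.00513, 1.10 ± 0.27, adjusted p = 0.0109, and 1.03 ± 0.27, adjusted p = 0.017). *Eif4e1b* held 13.8 and 11.2 CPM with TSA + RK-701, 14.3 and 16.6 with TSA + A366 and 13.6 and 27.6 with TSA + UNC0638, against 28.1 and 58.00. It fell with RK-701 and A366 (-1.78 ± 0.39, adjusted p = 0.00356, and -1.47 ± 0.38, adjusted p = 0.0139) to the range of IVF embryos, and with UNC0638 it had -1.06 ± 0.38 (adjusted p = 0.0802). The 10 oocyte-stored markers summed to 1015 to 1190 CPM with TSA + RK-701, 1249 to 1499 with TSA + A366, 1301 to 1640 with TSA + UNC0638 and 1493 to 1645 in the control. Genes of this sum went opposite ways. In the order of these 3 treatments, mean *Bmp15* was 322, 388 and 505 CPM against 633 in the control. Mean *Zp3* was 87.2, 109.7 and 76.7 CPM against 44.7. The part of these markers in the result was not tested. *Eif4e2*, a cap-binding protein that does not bind eIF4G, held 188 and 207 CPM with TSA + RK-701 and 116 and 79.2 in the control (1.01 ± 0.24, adjusted p = 0.00657). *Eif4g1* held 94.3 and 75.7 CPM with TSA + RK-701, 77.2 and 103 with TSA + A366 and 111 and 100.2 with TSA + UNC0638, and was called lower with RK-701 (-1.06 ± 0.23, adjusted p = 0.0032). *Eif4ebp2* stayed above IVF in these groups and was not called against the control, at -0.51, -0.31 and -0.54.

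Without LatA control replicate 2, in which *Eif2s1* was low, TSA + RK-701 had 5 calls, TSA + A366 had 6 and TSA + UNC0638 had 0. Without replicate 1 the counts were 18, 16 and 14. TSA + UNC0638 also had 0 calls without its own replicate 1 and 9 without its replicate 2. Called without each library in turn were *Eif2b3*, *Eif2s2*, *Eif3e*, *Eif3g* and *Eif3m* with TSA + RK-701 and *Eif2b3*, *Eif2s2*, *Eif3e* and *Eif3g* with TSA + A366, and none with TSA + UNC0638. With the CCB control as reference in place of the LatA control, *Eif1a*, *Eif2b3* and *Eif4e* were no longer called with TSA + RK-701 or TSA + A366. Also lost with this reference were *Eif4e2* and *Eif4g1* with TSA + RK-701, *Eif3h* and *Eif4e1b* with TSA + A366, and *Eif3m* and *Eif4e* with TSA + UNC0638. When only the compared libraries were fitted, *Eif1a* was lost in each combination. So were *Eif4e2* and *Eif4g1* with TSA + RK-701, *Eif3h*, *Eif4e* and *Eif4e1b* with TSA + A366, and *Eif3m* and *Eif4e* with TSA + UNC0638. With DESeq2, and with its size factors in edgeR, *Eif4e2* with TSA + RK-701 and *Eif4e* with TSA + UNC0638 were lost. On leaving out 1 library of TSA + RK-701 or of the LatA control, the log2 fold change over that control ranged from 1.16 to 1.53 for *Eif2s2* and from 1.41 to 1.70 for *Eif3g*. That of *Eif2s1* ranged from 1.04 to 2.44 and that of *Eif1a* from 0.68 to 1.84.

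In the other groups the genes that rose with combined treatment stood as follows. *Eif3g* held 188, 155, 184 and 187 CPM in IVF, 106 and 142 with TSA, 100.8, 127 and 132 with RK-701, 109 and 98.2 with A366, 145 and 187 with *Kdm3a* and 203 and 199 with *Kdm4d*. *Eif3e* held 226, 190.2, 232 and 169 CPM in IVF, 102 and 138 with TSA, 92.4, 118 and 109 with RK-701, 99.7 and 100.5 with A366, 201 and 246 with *Kdm3a* and 187 and 259.6 with *Kdm4d*. For both genes all combined libraries of RK-701 and A366 lay above all libraries treated with 1 of the drugs alone. *Eif3m* held 198, 164, 212 and 175 CPM in IVF, 79.2 and 140.0 with TSA, 97.2, 104 and 113 with RK-701, 117 and 89.9 with A366, 183 and 203 with *Kdm3a* and 237 and 220.1 with *Kdm4d*. *Eif2b3* held 109, 74.4, 80.2 and 112 CPM in IVF, 80.6 and 104 with TSA, 58.1, 89.7 and 77.2 with RK-701, 74.6 and 60.98 with A366, 114 and 166 with *Kdm3a* and 131 and 157 with *Kdm4d*. *Eif4e* held 1947, 1743, 1965 and 1785 CPM in IVF, 811 and 1422 with TSA, 1195, 1550.2 and 1284 with RK-701, 1115 and 817 with A366, 2313 and 2759 with *Kdm3a* and 2370.5 and 2763 with *Kdm4d*. The same separation from the single drugs held for these 3 genes. *Eif2s2* held 825 and 985.2 CPM with TSA, 579, 698 and 638 with RK-701 and 823 and 857 with A366, all below the IVF libraries.

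**Figure D3:**
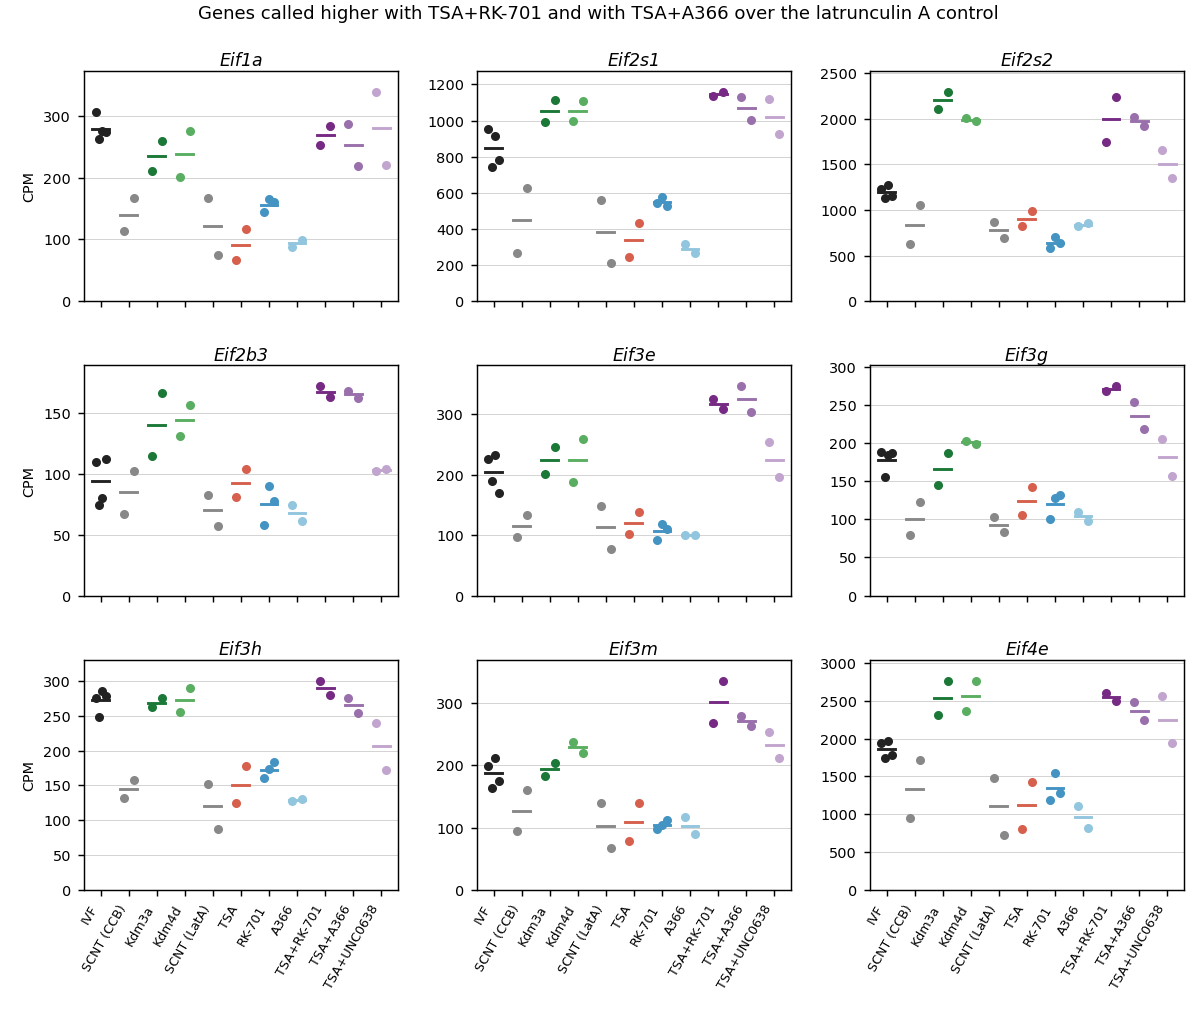
CPM in each library of the 9 genes called higher with TSA + RK-701 and with TSA + A366 over the LatA control, with the 11 groups along the horizontal axis. Points are libraries and bars are group means. In every panel the TSA + RK-701 and TSA + A366 libraries lie above those of the LatA control, TSA, RK-701 and A366.

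**Figure D4:**
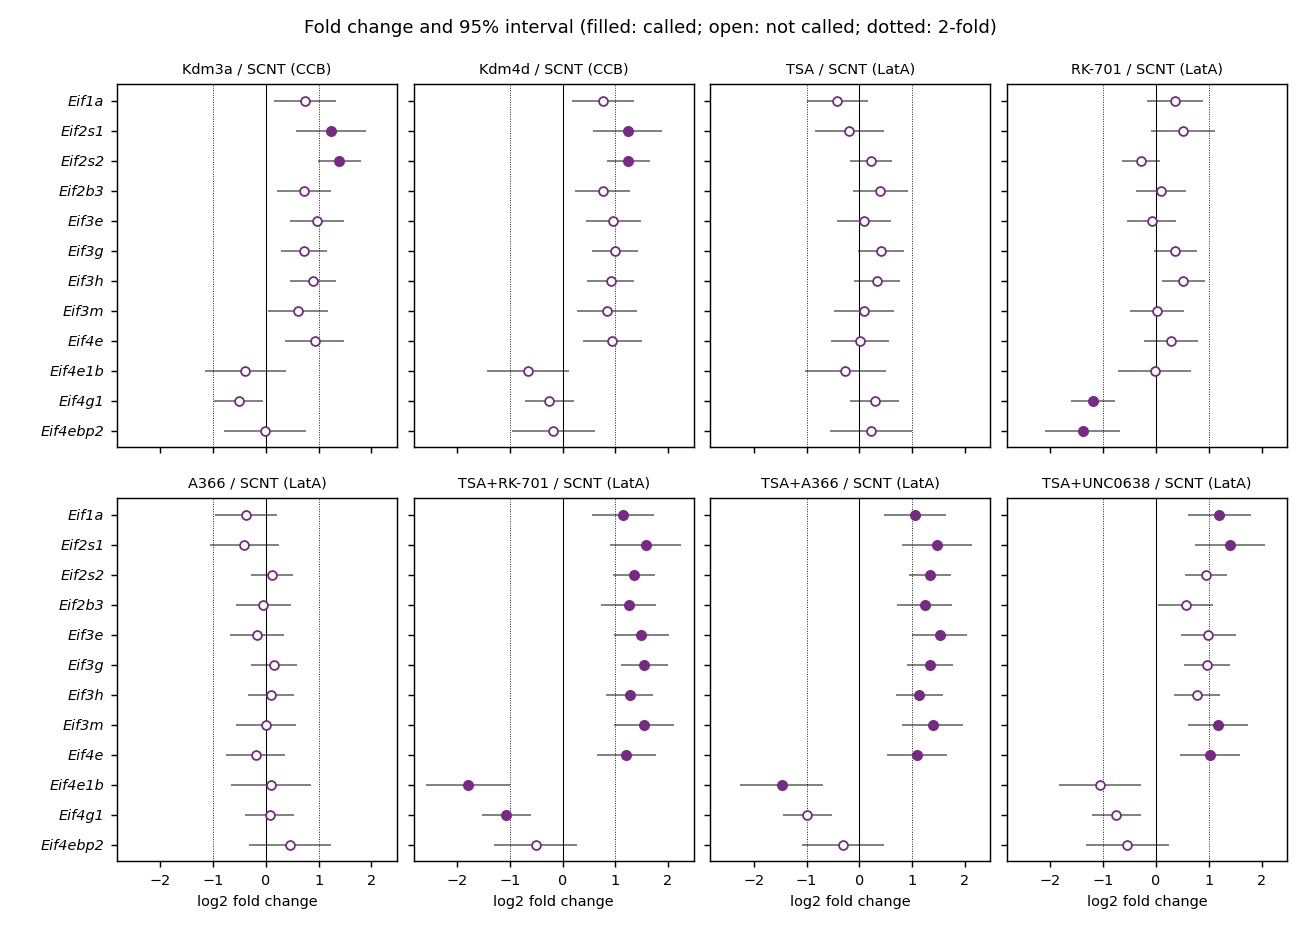
Log2 fold change of the same 9 genes and of *Eif4e1b*, *Eif4g1* and *Eif4ebp2* in 8 comparisons of a treatment with its own SCNT control. Points are estimates, lines are 95% intervals, filled points are called and open points are not, and dotted lines mark 2-fold. For the 9 genes all intervals with TSA or A366 alone include 0, and those with combined treatment or injected mRNA lie above 0.

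Whether the combination exceeded the sum of its parts on the log2 scale was tested as an interaction in the same model. For TSA and RK-701, 8 genes had a positive interaction and 0 a negative one, against 2.14% of all genes called, and for TSA and A366, 7 were positive and 1 negative, against 1.83%. With RK-701 the largest were *Eif3l* (1.72 ± 0.40, adjusted p = 0.0201), *Eif3e* (1.48 ± 0.34, adjusted p = 0.0175) and *Eif3m* (1.44 ± 0.37, adjusted p = 0.0352), and *Eif2s2* had 1.43 ± 0.26 (adjusted p = 0.00672). With A366 they were *Eif2s1* (2.07 ± 0.45, adjusted p = 0.0206), *Eif3l* (1.86 ± 0.42, adjusted p = 0.0234) and *Eif1a* (1.85 ± 0.41, adjusted p = 0.0204), and *Eif4g1* was negative (-1.35 ± 0.32, adjusted p = 0.0281). *Eif3l* held 71.9 and 42.3 CPM in the control, 26.5 and 42.9 with TSA, 44.5, 62.7 and 46.5 with RK-701, 30.7 and 40.3 with A366, 108 and 97.2 with TSA + RK-701 and 81.5 and 75.3 with TSA + A366. These calls depended on single libraries. Fitted to only the libraries compared, 1 (*Eif2s2*) and 0 interactions were called. Leaving out 1 library gave 0 (without TSA + RK-701 replicate 2) to 14 (without LatA control replicate 2) with RK-701, and 0 (without LatA control replicate 1, among others) to 22 (without LatA control replicate 2) with A366.

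RK-701 and A366 were given at the same dose and for the same time, and alone they differed in 5 of the 51 genes, against 8.08% of all genes. *Eif4ebp2* held 19.1, 16.1 and 16.8 CPM with RK-701 and 57.6 and 67.4 with A366 (-1.85 ± 0.35, adjusted p = 0.000589), *Eif3f* held 28.9, 24.7 and 23.1 with RK-701 and 62.3 and 76.3 with A366 (-1.44 ± 0.23, adjusted p = 0.000146), and *Eif4g1* held 82.2, 75.5 and 74.7 with RK-701 and 194 and 180.1 with A366 (-1.27 ± 0.20, adjusted p = 0.000118). The groups did not overlap for these 3 genes, and the calls held without each library in turn. *Eif2ak3*, the kinase PERK of the endoplasmic reticulum, was lower with RK-701 (-1.04 ± 0.24) and *Eif2b1* was higher (1.03 ± 0.29), and each of these was lost without some libraries. In all 5 genes the A366 libraries were nearer to LatA control replicate 2 and the RK-701 libraries nearer to replicate 1. The oocyte-stored markers summed to 2383 to 2982 CPM with RK-701 and 1550 to 1876 with A366, and their part in the difference was not tested.

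Combined with TSA, the 3 inhibitors did not differ by a call in any of the 51 genes with edgeR's quasi-likelihood test, while 0.00%, 0.946% and 0.849% of all genes differed between RK-701 and A366, RK-701 and UNC0638, and A366 and UNC0638. Unadjusted p was under 0.05 for 5, 12 and 9 of the 51 genes and for 998, 2970 and 2606 of all genes. DESeq2 called 0, 0 and 1 of the 51 genes. Between TSA + RK-701 and TSA + A366 the 95% interval of the log2 difference was -0.38 to 0.41 for *Eif2s2*, -0.23 to 0.64 for *Eif3g* and -0.49 to 0.67 for *Eif1a*, all within 2-fold. Between TSA + RK-701 and TSA + UNC0638 it was 0.18 to 1.21 for *Eif2b3* and 0.15 to 1.02 for *Eif3g*, which allows differences above 2-fold for both genes. The 2 untreated controls did not differ by a call either, with 0.0116% of all genes called and 0 of the 51 called by DESeq2. Unadjusted p was under 0.05 for 10 of the 51 genes and 2014 of all genes.

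Against IVF the treated groups had 2 to 16 calls. A366 had 8 higher and 8 lower (15.2% of all genes called) and TSA 8 higher and 5 lower (14.9%), while TSA + RK-701 had 5 higher and 1 lower (12.2%), TSA + A366 had 6 and 0 (10.9%), TSA + UNC0638 had 2 and 0 (9.84%), *Kdm3a* had 4 and 3 (12.8%), *Kdm4d* had 5 and 0 (9.31%) and RK-701 had 1 and 1 (11.8%). *Eif1a* was lower than IVF with TSA (-1.61 ± 0.27, adjusted p = 6.27e-05) and A366 (-1.58 ± 0.27, adjusted p = 8.17e-05), and its difference from IVF was -0.05 ± 0.25 with TSA + RK-701, -0.14 ± 0.25 with TSA + A366 and 0.00 ± 0.25 with TSA + UNC0638, none of them called. *Eif2s1* behaved alike, with -1.32 and -1.54 for TSA and A366, both called, and 0.44, 0.33 and 0.27 with combined treatment. *Eif4ebp2* was called higher than IVF in all treated groups except RK-701, from 1.38 with TSA + UNC0638 to 2.38 with A366. *Eif3k*, *Eif3b* and *Eif3d*, further subunits of eIF3, were called higher than IVF with TSA + RK-701 (1.21, 1.31 and 1.24) and with TSA + A366 (1.33, 1.35 and 1.09). *Eif4a2*, an eIF4A helicase, was called higher than IVF with *Kdm3a* (1.45 ± 0.14, adjusted p = 6.15e-08) and *Kdm4d* (1.01 ± 0.15, adjusted p = 1.99e-05), with 817 and 789 CPM after *Kdm3a* and 536 and 649 after *Kdm4d*, against 275, 303, 325 and 274 in IVF and 549 and 519 in the CCB control. The *Kdm4d* call, at the fold limit, was lost with DESeq2, with its size factors in edgeR, with a replicate block, and without IVF replicate 1, IVF replicate 4 or *Kdm4d* replicate 2. Without TSA replicate 1 the TSA count was 8, and without TSA + UNC0638 replicate 2 the TSA + UNC0638 count was 4.

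The 31 genes called in none of the 10 comparisons included abundant ones. Among the scanning factors these were *Eif1*, *Eif5*, which ranged from 437 to 742 TPM over the group means, and *Eif5b*. In eIF3 they included *Eif3a* (318 to 493 TPM), *Eif3c* and *Eif3i*, at the cap *Eif4g2* (431 to 569.7 TPM), *Eif4a3* and *Eif4a2*, and in the last group *Eif5a* (523 to 897 TPM), which carries hypusine, and *Eif6*, which keeps ribosomal subunits apart. Of the 4 eIF2 kinases, *Eif2ak4* alone was called in any of them. *Eif2ak2* was at 0 in 5 treated libraries and at most 5.43 CPM, so its fold changes rest on few reads and are not given.

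Of 46 genes listed for other steps of translation and its control, 44 were tested. Against the LatA control, 7 were higher and 3 lower with TSA + RK-701, 4 and 1 with TSA + A366, and 3 and 0 with TSA + UNC0638, with median log2 fold changes of 0.21, 0.20 and 0.22. Of all genes 6.19%, 5.98% and 6.21% were called. This list was fitted only with all libraries and the matched control, so its dependence on single control libraries was not tested. The LatA control libraries lay apart here too, at 125 and 225 CPM for *Metap1* and 307 and 482 for *Metap2*. *Eef1e1*, a partner of the aminoacyl-tRNA synthetase complex, was higher in all 3 (1.48, 1.46 and 1.30), and so was *Metap1*, 1 of 2 methionine aminopeptidases (1.27, 1.12 and 1.00). *Metap2* was lower than IVF in the CCB and LatA controls (-1.28 and -1.48) and higher than the LatA control with TSA + RK-701 and TSA + A366 (1.22 and 1.17). With TSA + RK-701 *Bzw2*, a mimic of eIF5, *Eef1d*, a subunit of the elongation factor 1 complex, *Abce1*, which recycles ribosomes, and *Rheb*, an activator of mTORC1, were also higher (1.03, 1.10, 1.12 and 1.20), and *Ybx2* and *Dazl*, which bind stored mRNA in germ cells, were lower (-1.37 and -1.04). *Gspt1*, the termination factor eRF3a, was higher with TSA + A366 (1.15) and *Mcts2* with TSA + UNC0638 (1.49). *Ddit3*, a target of the eIF2 stress response, was lower with TSA (-1.61), TSA + RK-701 (-1.73) and TSA + A366 (-1.88), and higher in the CCB control than in IVF (1.24). With TSA + UNC0638 it went the other way, at 32.1 and 47.6 CPM against 12.2 to 28.5 in the LatA control (0.96, not called), and it was lower with TSA + RK-701 and with TSA + A366 than with TSA + UNC0638 (-2.69 and -2.84, both called).

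In the controls *Tsc2*, an inhibitor of mTORC1 signalling, *Mknk1*, a kinase of eIF4E, and *Ppp1r15b*, which directs a phosphatase to eIF2α, were lower than IVF with CCB (-1.10, -1.08 and -1.06) and with LatA (-1.25, -1.04 and -1.08). *Kdm4d* injection gave 2 calls in this list, *Metap1* (1.05) and *Ppp1r15a*, the inducible relative of *Ppp1r15b* (1.09), both higher. RK-701 gave *Eef2k*, the kinase of elongation factor 2, higher (1.21) and *Dohh*, the last enzyme of hypusine synthesis, lower (-1.56). A366 and *Kdm3a* gave 0 calls with edgeR's quasi-likelihood test, with 6 and 15 of the 44 genes at an unadjusted p under 0.05. Of all genes, 3087 and 5193 had such a p, and DESeq2 was not run on this list.

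**Figure D5:**
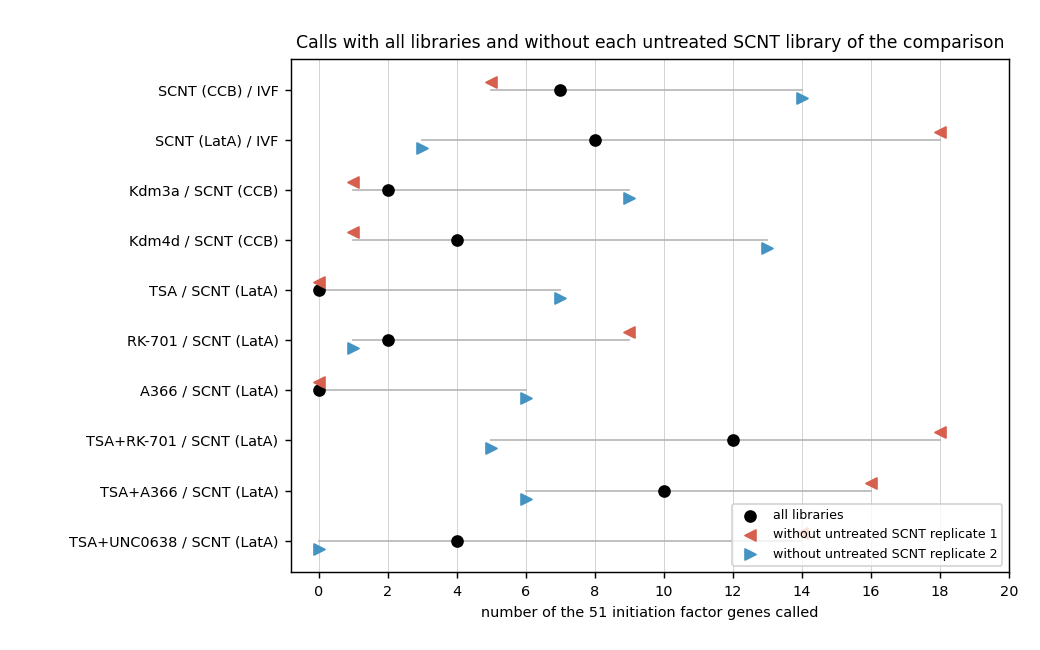
Number of the 51 genes called in each of the 10 comparisons (vertical axis) with all libraries (circles), without replicate 1 (left triangles) and without replicate 2 (right triangles) of the untreated SCNT control in that comparison. TSA + RK-701 moved between 5 and 18 calls and TSA + UNC0638 between 0 and 14.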

How the data were processed

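RNA-seq of pooled two-cell mouse embryos was read from 1 table of whole-number counts per gene that the authors deposited, for 25 libraries in 11 groups. Per the study's methods and the file header, libraries were made with SMART-Seq HT from poly(A) RNA, trimmed with Trimmomatic, aligned to mm10 with STAR, and counted with featureCounts 1.6.2 from unique alignments without strand, leaving out fragments that overlap more than 1 gene. Reads from nearly identical copies (*Eif3j1* and *Eif3j2*) or from overlapping antisense genes can therefore be lost or misplaced. The deposited counts were used without change. The authors had used DESeq2 and left out sex chromosomes.

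Genes on X and Y and genes with a mean under 1 read were removed, which left 25794. The quasi-likelihood test of edgeR 4.0.16 (R 4.3.3) was fitted to all 25 libraries with 1 coefficient per group and TMM factors of 0.883 to 1.16. The common dispersion was 0.136. Adjustment was by Benjamini-Hochberg over all genes tested, and genes were called at an adjusted p under 0.05 with a fold change over 2. CPM use TMM library sizes, and TPM use the exon lengths of the deposited table. Medians, shares and counts were computed with Python 3.11.15. Intervals are 95% intervals of the log2 fold change from this fit. On simulated counts for TSA + RK-701 against the LatA control, 58.0% of 200 genes changed by 4-fold were called among 25110 genes, with 4 false calls, so a gene without a call may still have changed. For the interaction of TSA and RK-701, 38.0% were called.

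The 51 genes, their roles, the 46 other translation genes and the marker lists were chosen with earlier results of these data known. Values are named for genes called in the comparison, for *Eif1a* and for abundant genes of each role. Nothing says that libraries of a group came from separate days, so p-values measure only the spread between these pools. Replicate numbers did not pair the groups. Alternatives were DESeq2 1.42.0, its size factors, other filters, sex chromosomes included, the compared libraries alone, a replicate block, the other control, the adjusted p alone, and leaving out each library. Promoter windows are from RefSeq on GRCm38.p6, which is the build of mm10, and 11 genes without a window were *Eif1a*, *Eif2b3*, *Eif3e*, *Eif3h*, *Eif3i*, *Eif3j2*, *Eif4e1b*, *Eif4e3*, *Eif4ebp1*, *Eif4g2* and *Eif6*.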

Additional observations from a re-analysis of the deposited data

Results flagged for a closer look

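Among the 4 IVF libraries, 1 library lay far below the other 3 for 3 of the 51 genes. The gap to its nearest neighbour, as a share of the whole range of the group, was 0.961 for *Eif1* (604 CPM in replicate 2 against 1479 to 1514), 0.864 for *Eif2b5* (39.7 CPM in replicate 4 against 55.7 to 58.2) and 0.876 for *Eif3g* (155 CPM in replicate 2 against 184 to 188), above the 95% limit for 4 values. Chance sets apart about 1 in 20 groups.

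For the other results the effect of TSA differed with the presence of a G9a inhibitor, by the test of the interaction itself. With RK-701 the interaction on the log2 scale was 1.72 for *Eif3l*, 1.48 for *Eif3e*, 1.44 for *Eif3m*, 1.43 for *Eif2s2*, 1.18 for *Eif4e2*, 1.12 for *Eif1b*, 1.07 for *Eif5b* and 1.04 for *Eif3j1*. With A366 it was 2.07 for *Eif2s1*, 1.86 for *Eif3l*, 1.85 for *Eif1a*, 1.63 for *Eif2b1*, 1.61 for *Eif3e*, 1.52 for *Eif2a*, 1.21 for *Eif3k* and -1.35 for *Eif4g1*. *Eif2a* held 348 and 137 CPM in the LatA control, 146 and 197 with TSA, 188 and 131 with A366, and 323 in each library with TSA + A366, so its combined libraries lay within the range of the control. *Eif2b1* held 343 and 129 CPM in the control and 389 and 378 with TSA + A366. Each of these calls was lost without at least 1 library, and *Eif2s2* with RK-701 was lost only without TSA + RK-701 replicate 2.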

How the results depend on the processing

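Counts of the 51 genes called moved mostly with the fold limit and with single libraries, in part by the construction of these alternatives (no limit, fewer samples). Otherwise the cause was not tested. On the adjusted p alone the counts were 25 and 27 for the CCB and LatA controls against IVF, 7 for *Kdm3a*, 12 for *Kdm4d*, 6 for RK-701, 22 for TSA + RK-701, 16 for TSA + A366, 13 for TSA + UNC0638 and 16 for RK-701 against A366. Against IVF they were 18 for *Kdm3a*, 15 for *Kdm4d*, 27 for TSA, 17 for RK-701, 26 for A366, 18 for TSA + RK-701, 15 for TSA + A366 and 13 for TSA + UNC0638. Of all 25794 genes, 5487 and 5572 passed for the CCB and LatA controls against IVF, 1585 for *Kdm3a* and 1329 for *Kdm4d*. With RK-701 1411 passed, with TSA + RK-701 2490, with TSA + A366 2375 and with TSA + UNC0638 2329. Against IVF 4967 passed for *Kdm3a*, 3737 for *Kdm4d*, 5606 for TSA, 4986 for RK-701 and 5704 for A366. For TSA + RK-701, TSA + A366 and TSA + UNC0638 against IVF 4768, 4214 and 3861 passed. With the other untreated control, *Kdm3a* had 7, *Kdm4d* 8, TSA 1 and A366 1, where 1693, 1048, 534 and 206 of all genes were called. Without a filter on low counts, TSA had 1, TSA + UNC0638 had 7, TSA + A366 against TSA + UNC0638 had 1, and the interactions had 14 (RK-701) and 13 (A366). With DESeq2, TSA had 1, TSA + A366 against TSA + UNC0638 had 1, and the interaction with A366 had 13. With the compared libraries alone, RK-701 had 1, TSA + UNC0638 had 2, TSA + A366 against TSA + UNC0638 had 1, and the interactions had 1 and 0.

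Leaving out 1 library gave 5 to 14 calls for the CCB control against IVF, 3 to 18 for the LatA control against IVF, 1 to 9 for *Kdm3a*, 1 to 13 for *Kdm4d*, 0 to 7 for TSA, 1 to 9 for RK-701, 0 to 6 for A366, 5 to 18 for TSA + RK-701, 6 to 16 for TSA + A366 and 0 to 14 for TSA + UNC0638. Against IVF the ranges were 6 to 9 for *Kdm3a*, 4 to 5 for *Kdm4d*, 8 to 18 for TSA, 2 to 3 for RK-701, 13 to 16 for A366, 4 to 8 for TSA + RK-701, 4 to 8 for TSA + A366 and 2 to 4 for TSA + UNC0638. They were 3 to 6 for RK-701 against A366, 0 to 1 for *Kdm4d* against *Kdm3a*, 0 to 2 between the controls, 0 to 14 and 0 to 22 for the interactions, and 0 to 0 for each comparison among combined treatments. Where 1 library of a pair is left out, the remaining one is taken to vary like the other groups.

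The replicate numbers share no stated source, and the correlation of deviations between pairs of groups was -0.322 to 0.165 over 36 pairs, so they were not used to pair the samples. With the replicate number as a block, *Kdm4d* against *Kdm3a* had 0 calls and the interactions had 2 and 4, and other counts stayed within 1.5 times. Of 128 calls of a gene in a comparison, all were kept with the other filters and with sex chromosomes included. DESeq2 and its size factors each left 6 with the direction only, the replicate block 17 and the compared libraries alone 28. With the other untreated control 19 kept direction and call and 15 the direction only. No call turned in direction under these, or at its lowest and highest fold change on leaving out 1 library.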
